A study of Mus musculus with 8 samples.

Results

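The genes described here are 33 genes of the PIWI-interacting RNA (piRNA) pathway, of germ granules and of the related Argonaute and microRNA pathways. They were taken from the deposited gene tables by name, as every Piwil, Tdrd, Ago or Eif2c gene with a number together with 19 named factors. They fill 40 of 26099 rows and are 33 of 23343 genes in each RNA table. Histone H3 lysine 27 acetylation (H3K27ac) was followed at peaks within 2 kb of their transcription start sites. The rule uses names and no measured value. They comprise 3 PIWI genes, 4 Argonaute genes, 9 Tudor domain genes, 3 RNA helicase genes, 9 other piRNA factors, 4 microRNA processing genes and Nanos1.

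The series holds 8 samples in 4 groups of 2 replicates, all from testes of adult C57BL/6 mice. H3K27ac was measured by chromatin immunoprecipitation sequencing in wild-type pachytene spermatocytes (PS), which are cells in meiotic prophase, and in wild-type round spermatids (RS), the haploid cells that follow meiosis. RNA was sequenced from PS and RS of Rnf8;Scml2-dKO mice, which lack both the ubiquitin ligase RNF8 and the Polycomb protein SCML2. No wild-type RNA and no dKO H3K27ac are used here, so each assay compares RS with PS within 1 genotype. A difference between stages in the RNA therefore carries the double deletion in both stages and says nothing of its effect. The cells were enriched by sedimentation through an albumin gradient. The study calls its replicates biological and states that PS and RS could be purified from a single dKO male, but the labels do not tie samples to animals.

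In background, piRNAs are small RNAs of the germ line that guide PIWI proteins to transposon and other transcripts. PIWI proteins carry methylated arginines, which Tudor domain proteins bind, and both kinds of protein gather with RNA helicases in cytoplasmic granules, the intermitochondrial cement of spermatocytes and the chromatoid body of spermatids. In mouse testis the pachytene piRNAs are made in large amounts during meiotic prophase, under the transcription factor A-MYB (the Mybl1 gene). Argonaute proteins bind microRNAs, which DROSHA with DGCR8 and then DICER1 cut from longer precursors.

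The RNA libraries held 9655405 to 12289694 reads on genes. The 33 genes took 0.911% and 0.925% of these reads in PS and 0.546% and 0.545% in RS. Rnf8 had 93 and 110 reads in PS and 61 and 50 in RS, and Scml2 had 40 and 92 in PS and 44 and 98 in RS, so reads on both deleted genes remained and the tables do not show which exons they cover. The defining spermatid genes Prm1, Prm2, Tnp1 and Tnp2 were present in all 4 libraries, and the summed level of 10 spermatid markers was 468 and 802 RPKM (a read count divided by transcript length and by library size) in PS against 13286 and 14101 RPKM in RS. The summed level of 10 spermatocyte markers was 515 and 390 RPKM in PS and 288 and 344 RPKM in RS, with no marker of either list at 0 reads. Among them Rec8 was higher in RS (7.13 and 10.1 RPKM, then 52.2 and 54.9), as was Smc1b (81.7 and 66.8, then 85.4 and 92.4). The other spermatocyte markers had lower mean levels in RS. The 8 spermatogonium markers summed to 24.6 and 17.1 RPKM in PS and to 36.1 and 31.5 RPKM in RS. The 6 Leydig cell markers summed to 729 and 547 RPKM in PS and to 68.3 and 42.6 RPKM in RS, mostly through Insl3. The 4 macrophage markers found summed to 3.05 and 2.23 RPKM in PS and to 42.0 and 36.4 RPKM in RS, and none was at 0. The 8 Sertoli markers summed to 5.74 to 13.8 RPKM, with Fshr at 0 in PS replicate 2 and RS replicate 2. The part of these other cells in the results below was not tested. In bulk RNA of this kind, fewer cells of a type and less RNA per cell cannot be told apart. The H3K27ac lists held 41095 to 74919 peaks, the most in RS replicate 1.

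As a set, the 33 genes were well expressed. Their median level was 33.1 RPKM in PS and 10.4 RPKM in RS, against 0.785 and 1.12 RPKM over all 23343 genes. In PS 25 of the 33 lay above 10 RPKM, as did 24.4% of all genes, and in RS 17 did, beside 23.3% of all genes. Of the 33, 32 had enough reads to be tested between stages (at least 10 in at least 2 libraries) and Piwil4 did not. A gene was called where its adjusted p was under 0.05 and its change over 1.5-fold. In edgeR's quasi-likelihood test 17 of the 32 fell from PS to RS, where 27.6% of the 14647 genes tested fell. In the same fit 4 of the 32 rose, beside 30.4% of all genes. The other 11 were not called. The median log2 difference (RS minus PS) was -0.73 over the 32 genes and 0.01 over all genes tested. By RPKM, both RS values lay below both PS values in 25 of the 33 genes and above them in 6. The stages overlapped only in Mael and Rnf17, so a lack of overlap was shared by most genes that were not called. Its share over all genes was not counted.

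**Figure D1:**
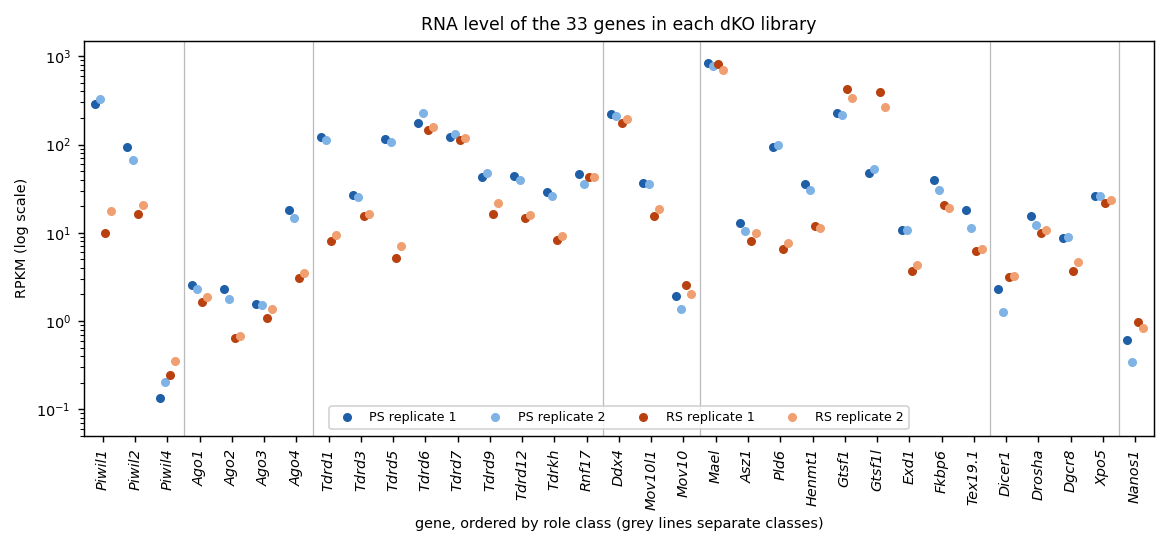
RNA level of each of the 33 genes in RPKM, on a log axis, with 1 point per library of Rnf8;Scml2-dKO PS (blue) and RS (orange) and grey lines between role classes. Piwil1, Tdrd1, Tdrd5 and Pld6 stand at 94.9 RPKM or more in both PS libraries and at 17.6 RPKM or less in both RS libraries, while Mael stays between 692 and 847 RPKM in all 4.

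The PIWI genes split by level. Piwil1 (also called Miwi, the main partner of pachytene piRNAs; chromosome 5, start site 128736246) stood at 286 and 326 RPKM in PS and at 9.91 and 17.6 RPKM in RS. Its RS values lay far below both PS values, and its mean level was 22.3-fold lower in RS. The log2 difference was -4.45 ± 0.26 (SE; n = 2 libraries per stage; edgeR adjusted p = 4.481e-06), the largest fall among the 32 genes tested. Piwil2 (Mili, which binds piRNAs both before and during meiosis) stood at 92.6 and 67.3 RPKM in PS and at 16.3 and 20.8 RPKM in RS. The stages did not overlap, and Piwil2 fell by 2.07 ± 0.18 on the log2 scale (edgeR adjusted p = 2.257e-05). Piwil4 (Miwi2, the nuclear PIWI protein of fetal germ cells) had 4 and 6 reads in PS and 9 and 11 in RS, or 0.133 to 0.354 RPKM, too few to test. Summed over the 3 genes, PIWI RNA was 379 and 394 RPKM in PS and 26.4 and 38.7 RPKM in RS. Piwil1 made up 10.3% and 12.1% of the summed RPKM of the 33 genes in PS, and 0.426% and 0.852% in RS.

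Of the 4 Argonaute genes, which encode the microRNA-binding relatives of the PIWI proteins, 2 fell and 2 were not called. Ago4, the most abundant of them in PS, stood at 17.9 and 14.5 RPKM in PS and at 3.09 and 3.54 RPKM in RS, a log2 difference of -2.25 ± 0.16 (edgeR adjusted p = 8.539e-06). Ago2, the Argonaute that can cleave its target, was low throughout, with 2.33 and 1.77 RPKM in PS and 0.641 and 0.677 RPKM in RS (log2 difference -1.59 ± 0.23, edgeR adjusted p = 0.0003623). Neither gene's stages overlapped. Ago1 averaged 2.43 RPKM in PS and 1.75 in RS (log2 -0.44 ± 0.19), and Ago3 1.53 and 1.22 RPKM (log2 -0.28 ± 0.21). The order in PS was therefore Ago4, Ago1, Ago2, Ago3, in which Ago1 and Ago2 overlapped between replicates. Ago1, Ago3 and Ago4 lie on 1 stretch of chromosome 4, with start sites at 126468421, 126429542 and 126533458.

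The 9 Tudor domain genes, most of which encode germ granule proteins that bind methylated arginines of PIWI proteins, divided into 6 that fell and 3 that were not called. Tdrd5, needed for piRNA production and retrotransposon silencing, stood at 115.4 and 105.7 RPKM in PS and at 5.20 and 7.05 RPKM in RS (log2 difference -4.14 ± 0.16, edgeR adjusted p = 3.294e-06). Tdrd1, a scaffold of the intermitochondrial cement, stood at 121.5 and 112.2 RPKM in PS and at 8.00 and 9.44 RPKM in RS, and fell by 3.68 ± 0.14 (edgeR adjusted p = 3.294e-06). Both genes thus left the top of the PS range, 18.1-fold and 13.4-fold lower by mean RPKM. Tdrkh, which holds PIWI proteins at mitochondria, stood at 29.2 and 26.3 RPKM in PS and at 8.25 and 9.29 RPKM in RS (log2 -1.62 ± 0.15). Tdrd12, a helicase-like Tudor protein, stood at 43.6 and 39.4 RPKM in PS and at 14.6 and 15.7 RPKM in RS (log2 -1.41 ± 0.15). Tdrd9, also a helicase, stood at 43.1 and 47.6 RPKM in PS and at 16.2 and 21.8 RPKM in RS (log2 -1.22 ± 0.16). None of these 3 overlapped between stages. Tdrd3, which encodes a broadly expressed reader of methylated arginines, averaged 26.2 RPKM in PS and 15.96 in RS and fell by 0.70 ± 0.13, the smallest called fall in the class. Without RS replicate 1 the difference of Tdrd3 was -0.57 and under 1.5-fold.

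The Tudor genes that were not called were Tdrd6, Tdrd7 and Rnf17. Tdrd6, a chromatoid body component, stood at 176 and 225 RPKM in PS and at 146 and 159 RPKM in RS, a log2 difference of -0.36 ± 0.15 that missed both thresholds. Tdrd7, also of the chromatoid body, averaged 126.6 RPKM in PS and 115.5 RPKM in RS (log2 -0.09 ± 0.12). Rnf17, which encodes a large Tudor protein of its own granule type, averaged 41.2 RPKM in PS and 42.5 RPKM in RS (log2 0.09 ± 0.14), and its stages overlapped. In PS Tdrd6, Tdrd7, Tdrd1 and Tdrd5 led the class, and Tdrd1 overlapped Tdrd7 and Tdrd5 between replicates. In RS only Tdrd6 and Tdrd7 of the 9 genes remained above 100 RPKM.

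Among the helicases, Ddx4 (Vasa, a marker of germ cells and of germ granules) was abundant in both stages, at 220.3 and 212 RPKM in PS and 176 and 196 RPKM in RS (log2 -0.18 ± 0.11, not called). Mov10l1, which binds piRNA precursors, stood at 36.55 and 35.99 RPKM in PS and at 15.7 and 18.8 RPKM in RS and fell by 1.04 ± 0.14 (edgeR adjusted p = 0.0002423). Its relative Mov10, expressed in many tissues, was low, averaging 1.66 RPKM in PS and 2.30 RPKM in RS (log2 0.56 ± 0.27, not called). Without PS replicate 1, Mov10 passed the test with a log2 difference of 0.79.

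The 9 other piRNA factors moved in both directions, with 5 lower in RS, 2 higher and 2 not called. Pld6, the mitochondrial nuclease (Zucchini) that cuts piRNA precursors, fell the most, from 94.9 and 98.0 RPKM in PS to 6.59 and 7.73 RPKM in RS (log2 -3.72 ± 0.15, edgeR adjusted p = 3.294e-06). Henmt1, which methylates piRNA ends, went from 35.8 and 30.4 RPKM to 11.8 and 11.2 RPKM (log2 -1.52 ± 0.15). Exd1, a partner of TDRD12, went from 10.7 and 10.7 RPKM to 3.64 and 4.27 RPKM (log2 -1.40 ± 0.18). Each of these 3 genes had both RS values below both PS values. Tex19.1, a germ cell factor that holds down retrotransposons, went from 17.9 and 11.4 RPKM to 6.29 and 6.54 RPKM (log2 -1.15 ± 0.23). Fkbp6, a co-chaperone of piRNA loading, went from 39.2 and 30.8 RPKM to 20.5 and 19.3 RPKM (log2 -0.76 ± 0.17), and without RS replicate 2 it was not called (log2 -0.59, edgeR adjusted p = 0.07726).

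The 2 genes of this class that rose are related. Gtsf1, a small zinc finger protein that PIWI proteins need for cleavage, went from 227 and 216 RPKM in PS to 422 and 334 RPKM in RS (log2 0.81 ± 0.14, edgeR adjusted p = 0.001274). Its paralog Gtsf1l went from 47.3 and 52.6 RPKM to 389 and 269.6 RPKM, a log2 difference of 2.76 ± 0.20 (edgeR adjusted p = 8.982e-06) and 6.60-fold by mean RPKM. Both genes had all RS values above all PS values. Gtsf1l made up 1.71% and 1.95% of the summed RPKM of the 33 genes in PS and 16.7% and 13.1% in RS. Mael (Maelstrom, a germ granule protein) was the most abundant of the 33 genes in every library, at 847 and 776 RPKM in PS and 823 and 692 RPKM in RS. Its stages overlapped, and the log2 difference was -0.06 ± 0.13. Asz1, a mitochondrial partner of the cement, averaged 11.8 RPKM in PS and 9.002 RPKM in RS (log2 -0.35 ± 0.20, not called).

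Of the 4 microRNA processing genes, Dgcr8 went from 8.74 and 8.90 RPKM in PS to 3.73 and 4.60 RPKM in RS (log2 -1.04 ± 0.17, edgeR adjusted p = 0.0009315). Dicer1 rose from 2.30 and 1.28 RPKM to 3.15 and 3.22 RPKM (log2 0.88 ± 0.25, edgeR adjusted p = 0.01353). The 2 PS libraries of Dicer1 lay far apart, and without PS replicate 2 the difference was 0.56 and under 1.5-fold. Drosha averaged 13.9 RPKM in PS and 10.4 RPKM in RS (log2 -0.38 ± 0.15), and Xpo5, the exporter of microRNA precursors, 26.2 and 22.6 RPKM (log2 -0.17 ± 0.13). Neither was called. Nanos1, which encodes an RNA-binding repressor of translation, was near the floor of detection, with 27 and 15 reads in PS and 53 and 39 in RS, or 0.603 and 0.344 against 0.964 and 0.843 RPKM. Its rise (log2 0.97 ± 0.36, edgeR adjusted p = 0.04229) was not called by DESeq2 (adjusted p = 0.1492), nor by edgeR without PS replicate 2 (log2 0.68), RS replicate 1 (0.96) or RS replicate 2 (1.17).

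Another 30 genes of the pathway that the rule did not take were read from the same fit. Of the 28 found in the tables, 27 could be tested, and 14 fell, 5 rose and 8 were not called, with a median log2 difference of -0.60, beside the 27.6% that fell and 30.4% that rose over all genes tested. Prmt5, the methyltransferase that places the arginine marks read by Tudor domains, fell by 2.23 ± 0.14 on the log2 scale, and its cofactor Wdr77 differed by -0.22 ± 0.18. Mybl1, the A-MYB gene, stood at 32.6 and 25.8 RPKM in PS and at 11.7 and 12.3 RPKM in RS (log2 -1.24 ± 0.15). The others that fell were Adad2, Dcp2, Ddx6, Dnd1, Gpat2, Pnldc1 (which trims piRNA ends), Stk31, Tarbp2, Tex19.2, Tnrc6c, Tsn and Tsnax. The largest rise was that of Kif17, a testis kinesin of the chromatoid body, from 13.2 and 19.15 RPKM in PS to 134 and 138 RPKM in RS (log2 3.10 ± 0.19). Tex15, Tnrc6b, Adad1 and Prkra also rose.

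**Figure D2:**
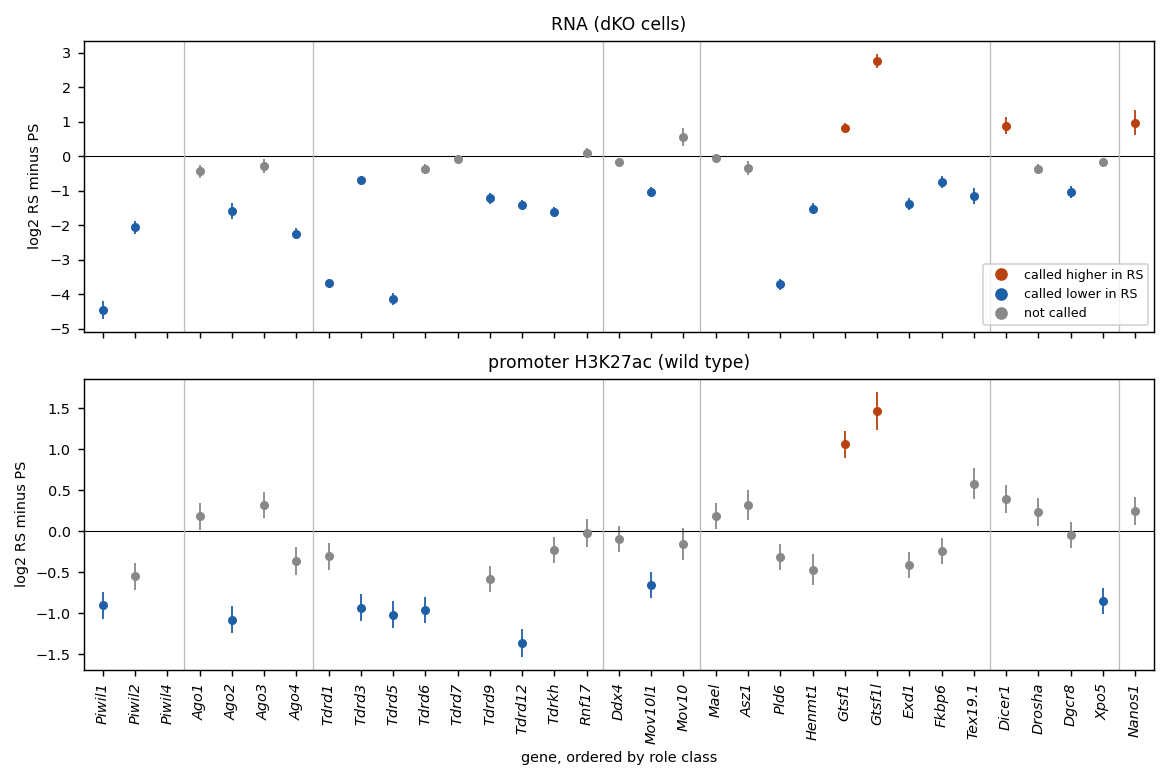
Log2 difference between stages (RS minus PS) for each gene, with its standard error, in RNA of dKO cells by edgeR (top) and in promoter H3K27ac of wild-type cells by limma after median centring (bottom), coloured by call. The 17 RNA falls range from -0.70 to -4.45, and the called H3K27ac differences from -1.36 to 1.47, on separate vertical scales.

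H3K27ac marks active promoters and enhancers, and its peaks were compared at the same genes in wild-type cells. A peak lay within 2 kb of a start site in both PS replicates for 31 of the 33 genes, where 55.5% of all genes had one. In both RS replicates the count was also 31, where 50.8% of all genes had one. Piwil4 and Tdrd7 had none at their deposited starts in any of the 4 libraries. The height of a peak is its fold enrichment at the summit over the local background modelled by the peak caller, without an input library. The 31 promoters were strongly acetylated in PS, with a median fold enrichment of 27.1 against 18 over 11352 genes with a peak in all 4 libraries, the median rank of the 31 being at the 80.0 percentile. In RS the medians were 15.9 and 13.3, and the median rank was at the 63.3 percentile. In PS 16 of the 31 lay above the 75 percentile of these genes, and in RS 10.

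**Figure D3:**
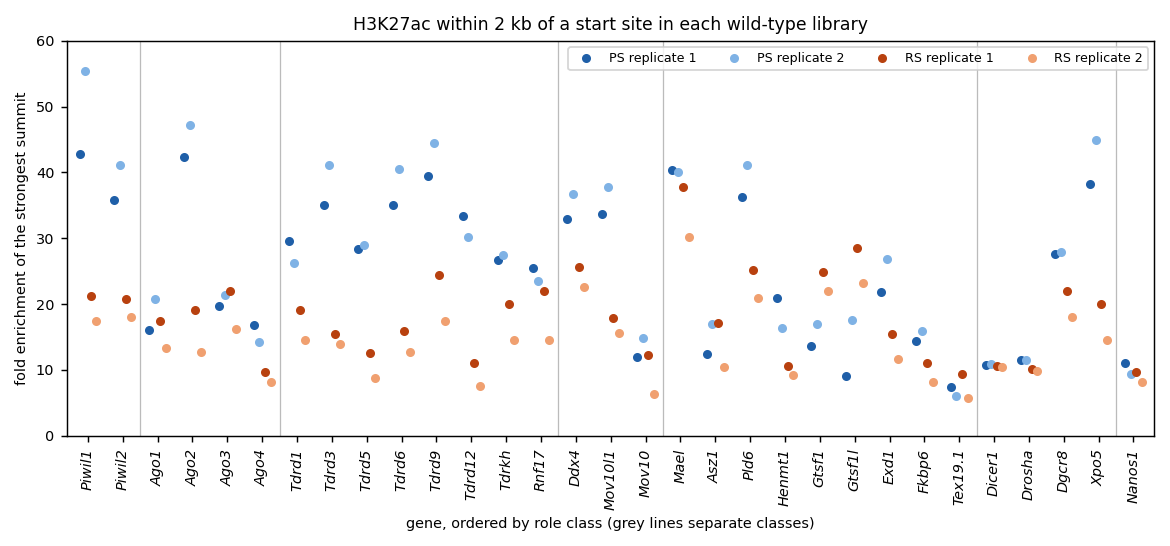
Fold enrichment of the strongest H3K27ac summit within 2 kb of a start site, for the 31 genes with such a peak, with 1 point per wild-type library (PS blue, RS orange). Piwil1 and Ago2 are at 42.4 or higher in both PS libraries, and Gtsf1 and Gtsf1l are the 2 genes with both RS values above both PS values.

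For the test, log2 fold enrichment was centred on the median over genes in each library, since those medians ran from 11.6-fold in RS replicate 2 to 18.6-fold in PS replicate 2. With limma, 8 of the 31 promoters were lower in RS, beside 13.3% of the 11352 genes tested, and 2 were higher, beside 16.9%. The median log2 difference was -0.24 over the 31 genes. Without centring the median over all genes shifted to -0.42, and 17 of the 31 were then lower and 2 higher. Over all genes 55.9% of calls were higher with centring (1913 higher, 1510 lower) and 18.7% without it (948 and 4116). The differences that follow are relative to the median gene.

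Tdrd12 lost the most acetylation, with fold enrichments of 33.3 and 30.2 in PS and 10.99 and 7.55 in RS (log2 -1.36 ± 0.17, limma adjusted p = 3.747e-05). Ago2 stood at 42.4 and 47.1 in PS and at 19.12 and 12.8 in RS (log2 -1.08 ± 0.16, limma adjusted p = 0.0001843). Tdrd5 stood at 28.4 and 29.1 in PS and at 12.6 and 8.71 in RS (log2 -1.01 ± 0.16, limma adjusted p = 0.0002693). In these 3 promoters, as in the other 5 that were lower, both RS values lay below both PS values before centring, but so did those of the median gene (17.3 and 18.6 in PS, 15.1 and 11.6 in RS). Piwil1, with the highest single value of the set, stood at 42.8 and 55.4 in PS and at 21.2 and 17.4 in RS (log2 -0.90 ± 0.17, limma adjusted p = 0.0008574). Tdrd6 averaged 37.8 and 14.3 (log2 -0.96 ± 0.16), Tdrd3 38.0 and 14.7 (log2 -0.93 ± 0.16), Xpo5 41.6 and 17.2 (log2 -0.84 ± 0.16), and Mov10l1 35.8 and 16.8 (log2 -0.65 ± 0.16) in PS and RS. Mov10l1 was not called without RS replicate 1 (log2 -0.56). The windows of Xpo5, Exd1 and Drosha also hold the start of another gene (Polh, Chp1 and 6030458C11Rik), and their peaks cannot be assigned to either gene.

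The 2 promoters that gained acetylation were again Gtsf1 and Gtsf1l. Gtsf1l stood at 9.05 and 17.5 in PS and at 28.5 and 23.2 in RS (log2 1.47 ± 0.23, limma adjusted p = 0.0002639). Taller summits of the same peak lay just outside the window, and with a window of 5 kb the difference was 1.13. The 2 PS values lay apart, and the difference was 1.05 without PS replicate 1 and 1.89 without PS replicate 2. The values of PS replicate 2 and RS replicate 2 were read 1958 and 1952 bp from the start, within the gene. In PS replicate 1 the tallest summit (15.6) lay at 2535 bp, outside the window, so its value came from another place. Separate PS peaks nearer the start reached 5.35 in replicate 1 and 4.93 in replicate 2. The log2 difference of 1.47 therefore describes the window and not the start itself. With a window of 1 kb, which leaves out the summits at 1958 and 1952 bp, Gtsf1l was again called higher. Gtsf1 stood at 13.6 and 17.0 in PS and at 24.8 and 22.1 in RS (log2 1.06 ± 0.17, limma adjusted p = 0.0002564). Both were also called without centring. Pld6, one of the genes with the largest RNA falls, went from 36.2 and 41.1 in PS to 25.2 and 20.9 in RS (log2 -0.31 ± 0.16, not called).

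The other 21 promoters were not called, with centred log2 differences from -0.58 for Tdrd9 to 0.58 for Tex19.1. Piwil2 (35.8 and 41.1 in PS, 20.8 and 18 in RS, log2 -0.55 ± 0.16) and Tdrd9 (39.5 and 44.4, then 24.4 and 17.4) had adjusted p under 0.05 (0.01577 and 0.01057 by limma) but changes under 1.5-fold, and passed when PS replicate 1 was left out, at -0.59 and -0.61. Tdrd9 passed also without RS replicate 1 (-0.64), Piwil2 without RS replicate 2 (-0.65) and Henmt1 without PS replicate 2 (-0.70). Tex19.1 was among the weakest promoters, at 7.41 and 6.03 in PS and 9.36 and 5.81 in RS, and passed as higher without PS replicate 1 (0.79) or RS replicate 2 (0.72). Mael kept a high peak in both stages (40.3 and 40.0, then 37.8 and 30.2), with a centred log2 difference of 0.19 ± 0.16 that was -0.25 without centring. Ddx4 averaged 34.8 in PS and 24.1 in RS, Dgcr8 27.8 and 20.0, and Dicer1 10.8 and 10.5, with no call at any of them.

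RNA and promoter H3K27ac were set side by side for the 31 genes tested in both, with the caution that the RNA is of dKO cells and the H3K27ac of wild-type cells. Of the 17 genes with lower RNA in RS, 6 also had lower promoter H3K27ac (Piwil1, Ago2, Tdrd3, Tdrd5, Tdrd12 and Mov10l1), a share of 35.3%. Over all 10750 genes tested in both, 654 of the 3419 with lower RNA had lower H3K27ac. Of the 4 with higher RNA, 2 had higher H3K27ac (Gtsf1 and Gtsf1l), against 46.1% of all such genes. No gene of the 31 was called in opposite directions, which over all genes held for 4.74% of those with lower RNA and 5.38% of those with higher RNA. In the other 11 genes with lower RNA (64.7%) the promoter was not called, as in 76.1% of all genes with lower RNA. These include Pld6, whose RNA fell by 3.72 and whose H3K27ac differed by -0.31, and Ago4, with -2.25 and -0.36. Tdrd1 is also among them, but its H3K27ac value per gene compared different start sites in PS and RS, as set out below. Tdrd6 and Xpo5 had lower H3K27ac without an RNA call (RNA log2 -0.36 and -0.17). Tex19.1 had lower RNA beside an H3K27ac difference of 0.58 that was not called.

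**Figure D4:**
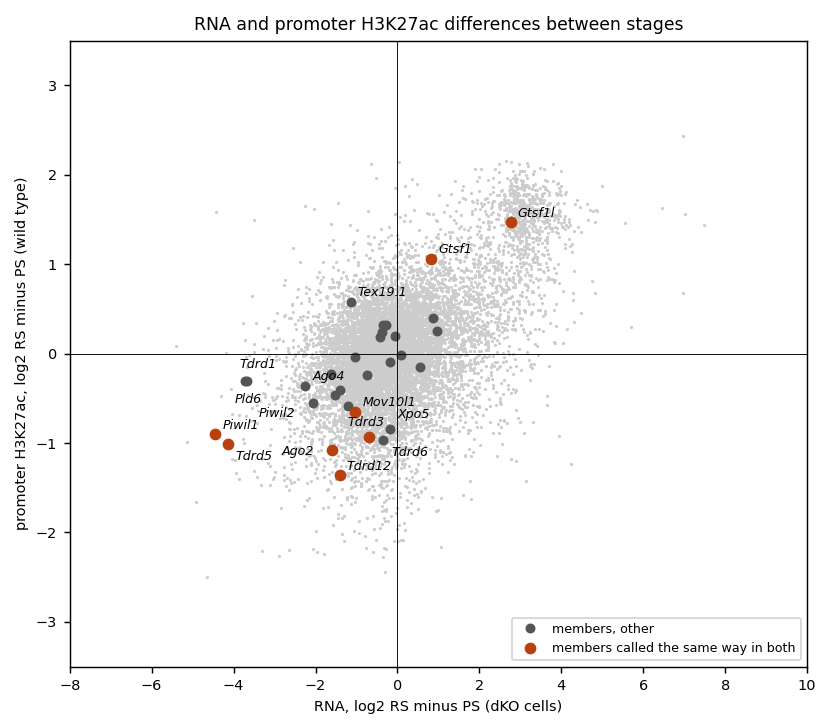
Log2 difference between stages (RS minus PS) in RNA of dKO cells (horizontal) and in centred promoter H3K27ac of wild-type cells (vertical), with all 10750 genes tested in both in grey, the members in dark grey and the 8 members called the same way in both in orange. Gtsf1l lies at 2.76 and 1.47, Piwil1 at -4.45 and -0.90, and Tdrd1 and Pld6 near the horizontal axis at -3.68 and -3.72 in RNA. The H3K27ac value of Tdrd1 compares different start sites in PS and RS.

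Tdrd1 differed between its start sites. Its 4 RefSeq rows begin at 2 places on chromosome 19, an upstream cluster of starts at 56826209 to 56826286 and a downstream start at 56830712. At the upstream cluster the fold enrichment was 29.6 and 26.3 in PS and 8.54 and 8.71 in RS. At the downstream start it was 6.59 and 9.87 in PS and 19.12 and 14.5 in RS. The order of the sites was thus opposite in the 2 stages, with no overlap between stages at either site. The strongest summit of the gene was at the upstream cluster in PS and at the downstream start in RS, so that the value per gene (log2 -0.30 ± 0.17) compared different sites.

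To test single sites, the fit was repeated with the 13036 RefSeq starts (GRCm38.p6) that had a peak in all 4 libraries, a setting chosen after seeing these data. The upstream start of Tdrd1 was lower in RS (log2 -1.32 ± 0.19, limma adjusted p = 5.859e-05), and the downstream start was higher (log2 1.42 ± 0.18, limma adjusted p = 2.858e-05). Of all starts, 15.4% were lower and 19.8% higher. Most members have 1 start or starts that share a summit there. Of the 28 members tested, 8 had a lower start and 4 a higher one (Gtsf1, Gtsf1l, Tdrd1 and Tdrd7). Tdrd1 counts in both directions, and Tdrd7 compares summits at different places. These counts are by gene and the shares over all are by start, so they are not on the same measure. The reads of Tdrd1 cannot be divided between the sites in a reproducible way: the row of the downstream start held 2859 and 201 reads in the 2 PS replicates and 500 and 162 in RS.

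Tdrd7 had no peak at the start its deposited row gives (chromosome 4, 45987462). RefSeq places other starts upstream, and at 45972297 and 45972831, which share a summit, the fold enrichment was 22.2 and 25.8 in PS and 13.0 and 13.9 in RS (log2 -0.46 ± 0.18, limma adjusted p = 0.05857, not called). At the farthest start, 45965335, a weak summit stood at 4.12 and 4.39 in PS and at 7.32 and 5.23 in RS (log2 0.92 ± 0.16, limma adjusted p = 0.0003787). These summits lay 22335 bp from the deposited start in PS replicate 2 but 20644 and 20647 bp from it in the RS libraries, so that call compares different places and is no rise at 1 site. In the gene body, a region annotated as intronic (45996555 to 46003479 in RS replicate 1) reached 22.8 and 20.3 in RS. Peaks overlapping it reached 9.05 and 9.32 in PS, and the difference was not tested. Piwil4 had no peak at either of its RefSeq starts in any library.

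**Figure D5:**
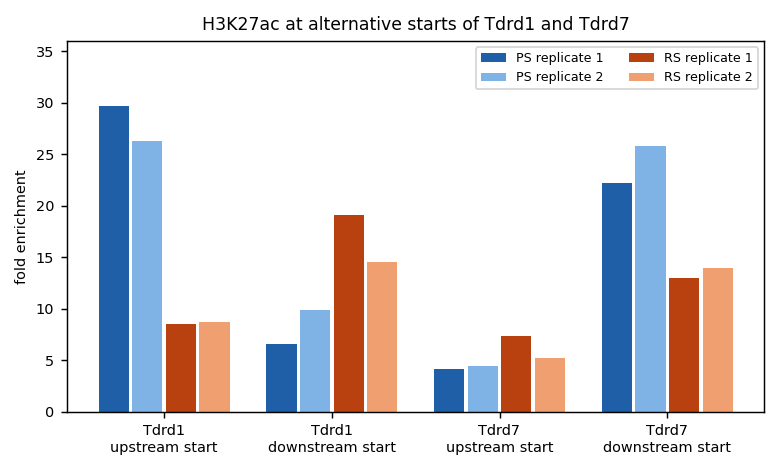
Fold enrichment of H3K27ac at alternative start sites of Tdrd1 and Tdrd7, with 1 bar per wild-type library. At Tdrd1 the upstream start falls from 29.6 and 26.3 in PS to 8.54 and 8.71 in RS while the downstream start goes from 6.59 and 9.87 to 19.12 and 14.5.

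Of the 8 promoters in which RNA and H3K27ac were called the same way, the 7 other than that of Ago2 are printed so that their letters can be read beside those values, together with both start regions of Tdrd1. Each is the 250 bases before the RefSeq start (GRCm38.p6, the same coordinates as mm10), 5′ to 3′ on the strand of the gene, with matches to the searched motifs in capitals. They lie at chr5:128735996-128736245 (plus strand) for Piwil1, chr14:87416333-87416582 (plus) for Tdrd3, chr1:156303349-156303598 (minus) for Tdrd5, chr7:35537745-35537994 (minus) for Tdrd12, chr15:88982744-88982993 (plus) for Mov10l1, chr15:103430428-103430677 (minus) for Gtsf1, chr2:163089602-163089851 (minus) for Gtsf1l, and chr19:56825959-56826208 and chr19:56830462-56830711 (plus) for the upstream and downstream starts of Tdrd1.
Piwil1: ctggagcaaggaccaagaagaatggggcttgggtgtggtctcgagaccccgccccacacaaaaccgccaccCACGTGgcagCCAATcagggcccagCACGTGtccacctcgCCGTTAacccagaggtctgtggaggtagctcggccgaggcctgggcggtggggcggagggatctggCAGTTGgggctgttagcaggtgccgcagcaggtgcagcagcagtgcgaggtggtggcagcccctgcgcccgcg
Tdrd3: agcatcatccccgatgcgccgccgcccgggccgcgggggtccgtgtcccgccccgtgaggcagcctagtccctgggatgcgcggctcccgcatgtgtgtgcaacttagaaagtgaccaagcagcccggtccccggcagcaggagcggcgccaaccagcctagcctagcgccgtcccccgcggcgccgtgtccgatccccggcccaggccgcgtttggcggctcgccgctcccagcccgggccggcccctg
Tdrd5: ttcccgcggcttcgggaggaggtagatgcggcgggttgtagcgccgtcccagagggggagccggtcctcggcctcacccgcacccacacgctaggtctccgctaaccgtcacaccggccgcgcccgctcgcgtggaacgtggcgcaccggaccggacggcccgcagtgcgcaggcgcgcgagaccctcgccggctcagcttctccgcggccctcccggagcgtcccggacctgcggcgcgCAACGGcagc
Tdrd12: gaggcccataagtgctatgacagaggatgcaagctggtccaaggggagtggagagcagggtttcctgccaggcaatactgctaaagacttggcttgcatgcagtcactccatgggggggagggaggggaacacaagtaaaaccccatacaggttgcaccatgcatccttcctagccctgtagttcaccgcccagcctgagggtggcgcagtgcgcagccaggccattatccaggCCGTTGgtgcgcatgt
Mov10l1: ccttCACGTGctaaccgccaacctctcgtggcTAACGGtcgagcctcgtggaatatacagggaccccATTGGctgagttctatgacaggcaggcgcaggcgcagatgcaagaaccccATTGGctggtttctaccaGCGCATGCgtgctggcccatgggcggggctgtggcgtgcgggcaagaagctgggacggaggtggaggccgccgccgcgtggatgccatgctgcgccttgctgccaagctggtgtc
Gtsf1: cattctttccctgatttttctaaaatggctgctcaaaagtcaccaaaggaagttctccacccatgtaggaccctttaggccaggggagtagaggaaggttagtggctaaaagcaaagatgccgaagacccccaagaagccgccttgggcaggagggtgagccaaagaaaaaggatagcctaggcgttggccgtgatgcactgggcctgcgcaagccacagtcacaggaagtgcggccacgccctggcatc
Gtsf1l: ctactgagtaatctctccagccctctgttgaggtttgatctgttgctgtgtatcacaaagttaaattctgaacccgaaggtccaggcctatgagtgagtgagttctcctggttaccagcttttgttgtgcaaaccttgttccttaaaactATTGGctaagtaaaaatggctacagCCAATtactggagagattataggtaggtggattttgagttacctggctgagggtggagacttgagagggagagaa
Tdrd1 upstream start: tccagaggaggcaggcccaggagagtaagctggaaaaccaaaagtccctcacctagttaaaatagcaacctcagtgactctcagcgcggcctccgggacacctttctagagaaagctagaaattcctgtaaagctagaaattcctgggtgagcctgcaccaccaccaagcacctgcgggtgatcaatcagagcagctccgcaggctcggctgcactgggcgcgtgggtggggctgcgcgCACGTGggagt
Tdrd1 downstream start: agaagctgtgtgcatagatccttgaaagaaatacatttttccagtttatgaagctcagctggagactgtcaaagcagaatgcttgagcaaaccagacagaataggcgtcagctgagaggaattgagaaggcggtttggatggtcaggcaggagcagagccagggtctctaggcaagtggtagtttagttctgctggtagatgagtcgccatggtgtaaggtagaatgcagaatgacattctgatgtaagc

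Of the 33 genes, 29 had a promoter in the RefSeq table, and Piwil2, Ago2, Tdrd6 and Rnf17 did not. Motifs were searched on both strands of the 250 bases before 1 start of each gene, and no match overlapped a match of another motif. The palindromic E-box CACGTG was found in 8 of the 29 promoters (27.6%) and in 6.02% of all 32851 promoters of the table. Its holders were Ddx4, Fkbp6, Mael, Mov10l1, Piwil1, Pld6, Tdrd1 and Tdrd9. The NRF1 letters GCGCATGC were found in 5 of the 29 (17.2%; Fkbp6, Mov10l1, Tdrd9, Tex19.1 and Xpo5) and in 2.26% of all. MYB letters (CAGTTA with its variants CAGTTG and CCGTTA, or CCGTTG) were found in 6 of the 29 (20.7%; Mov10l1, Piwil1, Tdrd12, Tdrd5, Tdrd7 and Tdrkh) and in 23.7% of all. CCAAT was found in 14 of the 29 (48.3%) and in 33.8% of all. The cyclic AMP response element TGACGTCA was in none of the 29 and in 1.55% of all.

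In the printed promoters, Piwil1 holds 2 E-boxes, beginning 179 and 154 bases before the start, and MYB letters beginning 139 and 73 bases before it. Tdrd5 and Tdrd12 each hold 1 set of MYB letters close to the start, beginning 10 and 16 bases before it. Mov10l1 holds an E-box, MYB letters, an NRF1 match and 2 CCAAT boxes. The upstream Tdrd1 start has an E-box beginning 11 bases before it, and the downstream start has none of the motifs. Gtsf1 has none of them and Gtsf1l has 2 CCAAT boxes. The promoters also differ in base composition. The 29 have a median of 66.4% G and C and 19 CG dinucleotides, against 52.4% and 6 over all promoters. The part of base composition in the motif shares was not tested. Tdrd5 has 75.2% and 40, Tdrd3 75.2% and 32, and Piwil1 67.6% and 16. Gtsf1l has 44.0% and 1, and Gtsf1 54.4% and 7. The upstream Tdrd1 start has 57.6% and 11, and the downstream start 46.4% and 3.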

How the data were processed

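Both stages were profiled in 2 replicates each, by RNA-seq in dKO mice and by H3K27ac ChIP-seq in wild-type mice. According to the study's methods the authors amplified RNA into double-stranded cDNA and kept unique alignments. Whether reads were counted by strand is not given in the sources used here. Their processing notes name STAR 2.4.2a, Bowtie 1.1.1 and MACS2 2.1.0.20140616 and the build mm10. The authors deposited read counts and RPKM values per RefSeq row, with reads divided among isoforms. The authors also deposited MACS2 peak lists per sample, with pileup signal, fold enrichment (a ratio to modelled background, with no input library), -log10 p and -log10 q values.

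Rows were summed per gene. Counts were tested with edgeR 4.0.16 (quasi-likelihood, TMM, at least 10 reads in at least 2 libraries), with DESeq2 1.42.0 as an alternative. For H3K27ac, limma 3.58.1 was run on log2 fold enrichment of the strongest summit within 2 kb of a start, centred on the median, for genes with a peak in all 4 libraries. It had 2 residual degrees of freedom per gene, with a prior worth 10.4. Benjamini-Hochberg adjustment ran over all genes tested, and calls needed an adjusted p under 0.05 and over 1.5-fold. An exact permutation test of 2 against 2 libraries cannot go below p = 0.333. Depth was 9655405 to 12289694 reads on genes, and the depth of the ChIP libraries is unknown from the peak lists. Replicates differed beyond sampling noise (chi-square per degree of freedom 11.22 in PS and 6.89 in RS). R 4.3.3 and Python 3.11.15 were used, and the tests were tried on simulated data.

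Each gene was named with its level. Values per library were given for PIWI genes and for up to 5 called genes per role class, by size of change. The genes and lists were chosen with earlier results of these data known. Motifs were searched in RefSeq promoters. Alternatives were other normalizations, filters, windows, tools and leaving out each library.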

Additional observations from a re-analysis of the deposited data

How the results depend on the processing

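The count of 17 members with lower RNA in RS was 17 with DESeq2, other scaling factors, no filter on low counts, no fold threshold or the replicate number as a block, and 16 to 17 when 1 library was left out. The count of 4 with higher RNA was 3 with DESeq2 and 2 to 5 when 1 library was left out, the 2 without PS replicate 2. For H3K27ac the 2 higher and 8 lower promoters became 2 and 17 without centring, 2 and 10 with quantile normalization, 2 and 9 with missing peaks set to the lowest value, and 4 and 8 with single start sites. They were 2 and 8 with 1 kb or 5 kb windows and with a trended prior variance, the first fit run, added to the alternatives after seeing the data. Leaving out 1 library gave 2 to 3 higher and 8 to 10 lower, with the lone sample assumed to vary like the others. Promoter peaks were found at 31 members in every window, at -log10 q of at least 5 and in either replicate alone, and at 28 by the deposited promoter annotation, which also lacks Drosha, Exd1 and Xpo5.

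Labels do not say that samples with the same number share an animal. Their deviations correlated at 0.225 in RNA and 0.00901 in H3K27ac, and with this number as a replicate block the member calls were again 4 higher and 17 lower in RNA and 2 higher and 8 lower in H3K27ac.

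Signs changed for genes near 0. In RNA, Mael was 0.0017 with upper-quartile factors and ranged from -0.10 to 0.17 when 1 library was left out, Tdrd7 from -0.20 to 0.046, and Rnf17 from -0.030 to 0.23. In H3K27ac without centring, Ago1 was -0.26, Ago3 -0.12, Mael -0.25, Asz1 -0.12, Dicer1 -0.043, Drosha -0.20 and Nanos1 -0.19, and Tdrd1 was 0.18 with the 5 kb window. When 1 library was left out, the H3K27ac difference ranged from -0.13 to 0.095 for Rnf17, from -0.10 to 0.0039 for Dgcr8, from -0.20 to 0.0094 for Ddx4 and from -0.43 to 0.11 for Mov10. The cause was not tested. With 2 libraries per stage only differences well above the replicate spread could be called, and Piwil4 and Nanos1 rest on few reads.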

Other observations

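Strong H3K27ac peaks also lay away from the start sites, with the gene name given by nearness alone and no test made. A region 18919 bp from the start of Asz1 on chromosome 6 (18126725 to 18130322) reached a fold enrichment of 26.5 in RS replicate 1 and 23.2 in RS replicate 2. Peaks overlapping it reached 8.64 and 13.15 in PS. An intronic region of Rnf17 on chromosome 14 (56449855 to 56451734) reached 6.59 and 6.58 in PS and 19.9 and 14.5 in RS. A region named for Piwil4 but 97406 bp from its start (chromosome 9, 14640607 to 14644942) reached 27.7 and 30.2 in RS. In PS that region stood at 10.3 and 13.15. Piwil4 itself had no promoter peak and at most 11 reads in a library.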
